A study of Mus musculus with 12 samples.

Results

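The aortic arch of DBA/2J (DBA) mice was compared with that of C57BL/6 (B6) mice over all genes of a whole-transcript microarray. The 6 arrays titled as aortic arch of these strains, 3 DBA and 3 B6, were taken from the 12 arrays of the series, and 22180 genes were tested. All mice of these groups were males on regular chow, aged 2 to 5 months per the labels, with no treatment given. They are taken as wild type, as the study's text has it, although the deposited design text calls them wild type and also adds apoe to each strain name, so the Apoe genotype is not settled by the labels. The DBA pools held 5 mice each, and the B6 pools held 4, 5 and 5 mice (replicates 1, 2 and 3). The arch arrays of 129S6/SvEvTac (129) mice, 3 pools of 5, entered the fit for its shared estimate of spread, and their values are given only as a further level. These strains, made deficient in apolipoprotein E, are parents of crosses in which the study mapped plaque size at the aortic root, and the arrays were run on aorta to look for expression differences between the parents. Since each array is a separate pool, the p-values reflect variation among pools.

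The arch wall holds smooth muscle cells that contract and lay down elastin, an endothelium that recruits leukocytes, and an adventitia with fibroblasts, macrophages, mast cells and fat. Inbred strains differ at many loci at once, and genes of immune families that lie in tandem clusters, such as the histocompatibility genes and the interferon-inducible genes, are known to differ in copy number and sequence between laboratory strains. Class II histocompatibility molecules present peptides to helper T cells, and guanylate-binding proteins, tripartite motif proteins and the Ifi200 proteins act against intracellular microbes or sense foreign DNA. In bulk tissue, fewer cells of a type and less RNA per cell cannot be told apart.

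Transcripts of other organs were abundant on 2 of the 6 arrays. The 12 measured heart muscle genes summed to a signal of 34811 on DBA replicate 2 and to 1482 and 1568 on the other DBA arrays, against 1331 to 1861 on the B6 arrays. The 9 lung epithelial genes summed to 6054 on DBA replicate 2 and to 113 and 166 on the other DBA arrays, against 103 to 277 on the B6 arrays. The 12 hepatocyte genes summed to 334 to 632 on the DBA arrays, against 16207 on B6 replicate 1 and 314 and 370 on the other B6 arrays. Xist, the transcript of the inactive X chromosome of females, had a log2 value of 8.15 on B6 replicate 1, although the labels give males, and of 4.42 to 4.64 on the other 5 arrays. Contractile genes of smooth muscle, which mark the labelled tissue, summed to 52695 to 55262 on the DBA arrays and to 46507 to 52248 on the B6 arrays. Both arrays that stood apart were kept, and results that rest on them are given without them as well.

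**Figure D1:**
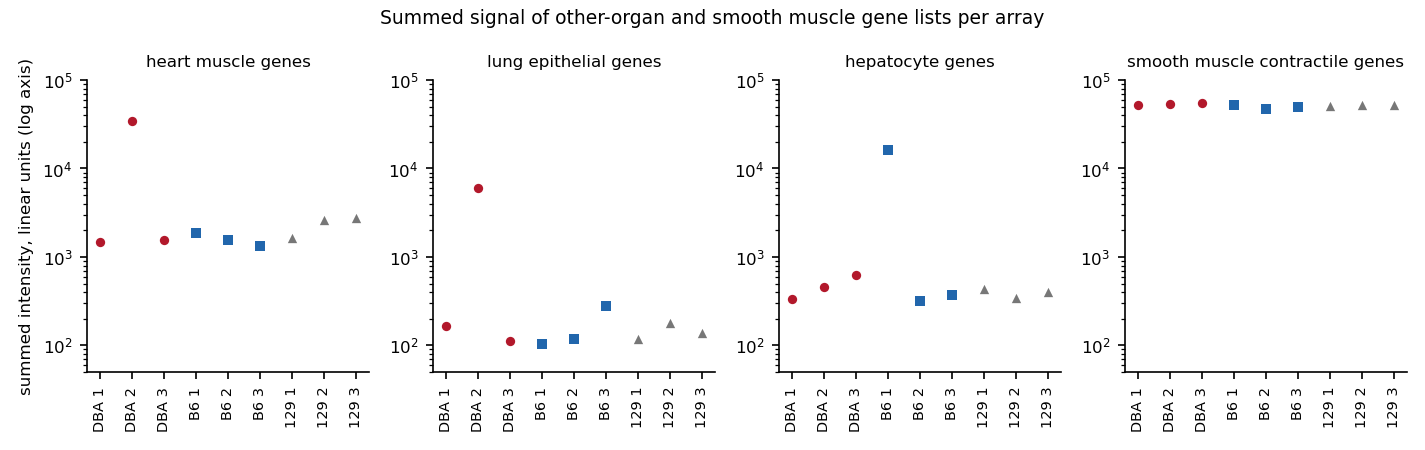
Summed signal on the linear scale (log axis) of the measured heart muscle, lung epithelial, hepatocyte and smooth muscle contractile genes on each arch array, with DBA arrays as red circles, B6 arrays as blue squares and 129 arrays as grey triangles. DBA replicate 2 stands at 34811 for heart and 6054 for lung genes, and B6 replicate 1 at 16207 for hepatocyte genes, while the smooth muscle sums lie between 46507 and 55262 on the 6 DBA and B6 arrays.

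DBA and B6 arch differed most in a small set of genes with very large differences. H2-Ea, the alpha chain of the class II molecule H2-E, and Gbp8, a guanylate-binding protein, were 53.7-fold and 51.5-fold higher in DBA, and Neto1, an auxiliary protein of glutamate receptors, was 39.0-fold higher. Gm3893, a predicted gene, Olfr1033, an olfactory receptor, and Trim12a, a tripartite motif gene, were 15.8-fold, 15.0-fold and 10.8-fold lower in DBA. A total of 344 genes passed the threshold of 0.05 after Benjamini-Hochberg adjustment in limma, which was 1.55% of those tested. Of these, 190 were higher in DBA (0.857% of all genes) and 154 were lower (0.694%). The difference was at least 2-fold for 109 of the higher and 85 of the lower genes, and at least 8-fold for 11 and 6. The median absolute log2 difference of called genes was 1.09, whereas the median log2 difference of all genes was 0.02 and their quartiles were -0.12 and 0.17.

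Each of the 344 called genes had 3 DBA arrays apart from the 3 B6 arrays. Over all genes the DBA arrays lay above the B6 arrays for 9.82% and below them for 7.28%. Without DBA replicate 2 and B6 replicate 1 together, 287 genes passed (1.29% of all genes), and 187 of them had been called the same way in the fit of all 9 arch arrays. A total of 121 calls, 67 higher and 54 lower in DBA, passed in that fit and in each of the 9 fits that left out 1 array. The 129 arch mean was nearer to the B6 mean for 172 of the called genes and nearer to the DBA mean for 172. It lay between both means for 218. The array gives no detection calls here, and a strain difference in transcript level and one in how well a transcript matches the probes cannot be told apart, because probe sequences were not used.

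**Figure D2:**
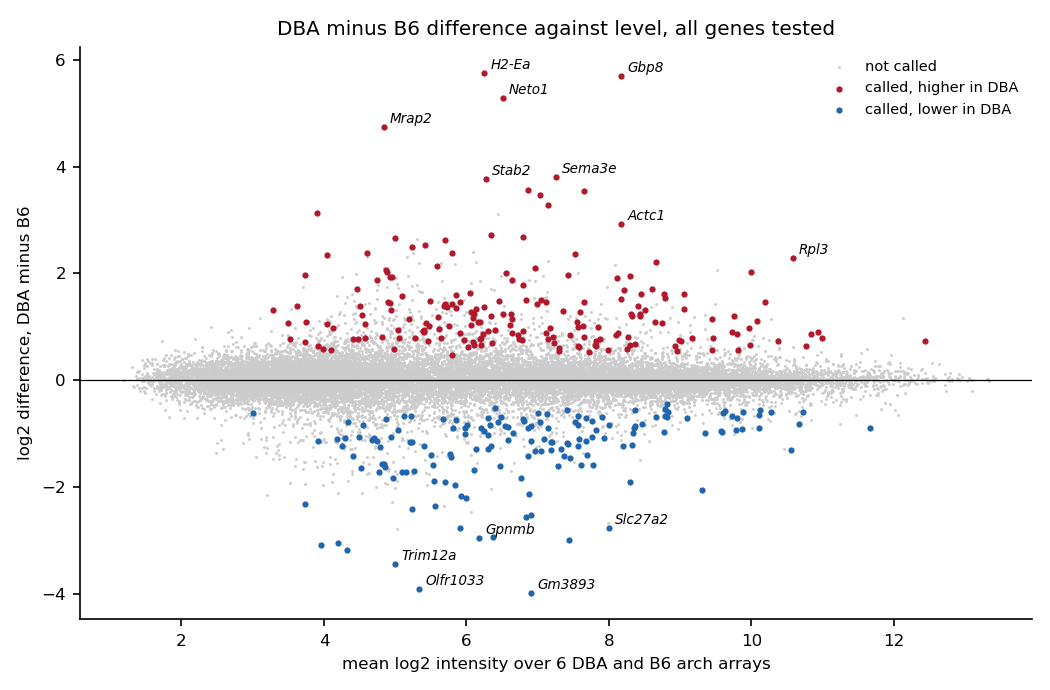
Log2 difference of DBA minus B6 arch (vertical axis) against the mean log2 intensity over the 6 arrays (horizontal axis) for 22180 genes, with called genes in red (190 higher in DBA) and blue (154 lower in DBA) and other genes in grey. Called genes were spread over the range of levels, and the largest differences were 5.75 for H2-Ea and -3.98 for Gm3893.

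Class II histocompatibility genes did not move together. H2-Ea had log2 values of 9.07, 9.45 and 8.86 on the DBA arrays, against 3.23, 3.43 and 3.48 on the B6 arrays. All 3 DBA arrays were high, all 3 B6 arrays lay with the 129 arrays (3.39 to 3.43), and the groups were far apart. The difference was 53.7-fold (95% interval 42.3 to 68.2, adjusted p = 4.05e-07). H2-Aa, the alpha chain of the other class II molecule, had values of 6.54, 7.06 and 6.91 in DBA, against 8.09, 8.13 and 7.88 in B6. It was lower in each DBA array than in any B6 array (log2 difference -1.20 ± 0.17 (SE), adjusted p = 0.0109). Its partner chain H2-Ab1 was at -1.03 ± 0.21 and missed the threshold (adjusted p = 0.0507), but passed without both arrays with other-organ transcripts (0.0424), and H2-Eb1, the partner of H2-Ea, was at -0.39 ± 0.14 (adjusted p = 0.285). Of 11 measured class II genes 1 was higher, 1 was lower and 9 did not pass, with a median of -0.08, against 0.02 over all genes. Of 16 class I and peptide loading genes 1 was lower in DBA, H2-Q4 (-0.83 ± 0.16, adjusted p = 0.0453). That call was lost in 8 of the 9 fits without 1 array, all but the fit without DBA replicate 3 (adjusted p = 0.0509 to 0.147). It was also lost without both arrays with other-organ transcripts (0.158).

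Gbp8 stood alone in its family. Its log2 values were 11.23, 10.89 and 10.94 in DBA, against 5.27, 5.04 and 5.69 in B6, and the 129 arrays were at 5.73 to 6.74. All 3 DBA arrays were bright, and no B6 array came near them. The difference was 51.5-fold (95% interval 34.3 to 77.3, adjusted p = 1.62e-05). Gbp9, its neighbor in gene order, was lower in DBA (-0.78 ± 0.13, adjusted p = 0.0208), as was Irgm2, an immunity-related GTPase of another family (-1.41 ± 0.16, adjusted p = 0.00342). Gbp6, from the same row of genes, was at 0.56 ± 0.12 and did not pass (adjusted p = 0.0604). Of 14 measured interferon-induced GTPases 1 was higher, 2 were lower and 11 did not pass, with a median of -0.24. Over all genes 1.55% were called in either direction. Whether the counts of this or other lists depart from that share was not tested. Gbp9 missed the threshold once any 1 DBA array was left out (adjusted p = 0.0554, 0.0757 and 0.0795) and without both arrays with other-organ transcripts (0.0889). Lrrc8b, a subunit of volume-regulated anion channels, follows the Gbp genes in order and was chosen after its values were seen. The DBA level was 3.04-fold higher (adjusted p = 0.00108).

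Of 16 measured genes induced by type I interferon 1 was called, and their median was -0.47. Bst2, which tethers budding virions, was lower in DBA (-0.76 ± 0.14, adjusted p = 0.0366), a call lost in each of the 9 fits without 1 array (0.0547 to 0.0976). Usp18, a brake on interferon signaling, was at -1.05 (adjusted p = 0.220), and Irf7, a transcription factor of the interferon response, was at -0.83 (adjusted p = 0.195). Without both arrays with other-organ transcripts the median was -0.46 and no member passed.

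The Trim12 and Trim30 genes lie side by side on chromosome 7 and encode relatives of the restriction factor Trim5 of primates. They differed in opposite directions. Trim12a had log2 values of 2.77, 3.50 and 3.57 in DBA, against 6.49, 7.02 and 6.64 in B6. Trim12c had 6.14, 6.30 and 6.56 in DBA, against 3.73, 3.90 and 3.39 in B6. Where Trim12a was dim, Trim12c was bright, and the groups were apart for both, with the 129 arrays at 2.48 to 3.69 for Trim12a and 6.02 to 6.63 for Trim12c, near DBA. Trim12a was 10.8-fold lower in DBA (adjusted p = 0.00108), and Trim12c was 6.33-fold higher (95% interval 4.64 to 8.62, adjusted p = 0.000247). Trim30d had values of 2.08, 2.33 and 2.84 in DBA, against 5.80, 5.44 and 5.24 in B6, and was 8.43-fold lower in DBA (adjusted p = 0.000499). Trim34a (-1.11 ± 0.22, adjusted p = 0.0449) and Trim30c (-1.10 ± 0.21, adjusted p = 0.0402) were lower as well. Trim30a, which dampens inflammatory signaling, was at 0.12 (adjusted p = 0.906) and Trim6 was at 1.21 (adjusted p = 0.126).

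Of 9 measured genes on the Trim12 and Trim30 cluster list, 1 was higher, 4 were lower and 4 did not pass. Over all genes 1.55% were called. Without both arrays with other-organ transcripts 1 was higher and 2 were lower, and Trim34a and Trim30c did not pass (adjusted p = 0.101 and 0.143). The call of Trim34a passed in 3 of the 9 fits without 1 array (those without DBA replicate 3, B6 replicate 1 or 129 replicate 3) and had an adjusted p of 0.0594 to 0.145 in the rest. That of Trim30c passed only without 129 replicate 2 (adjusted p = 0.0272, against 0.0511 to 0.125 in the other 8). Members of this cluster are similar in sequence, and signal of one member on the probes of another was not tested.

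The promoter windows of the 3 members with the largest differences are shown because a matching interferon motif stands in all of them, although the signals ran in opposite directions. The sequences are those of the reference genome, which is B6 (RefSeq, GRCm38.p6), from 250 bases before to 50 after the annotated start on the minus strand. Capitals mark the core of the interferon-stimulated response element, which reads GAAA, any 2 bases and GAAA, and which was searched on both strands and stands here on the opposite one. They are at chr7:104315446-104315745 for Trim12a, chr7:104353300-104353599 for Trim12c and chr7:104507800-104508099 for Trim30d.
Trim12a: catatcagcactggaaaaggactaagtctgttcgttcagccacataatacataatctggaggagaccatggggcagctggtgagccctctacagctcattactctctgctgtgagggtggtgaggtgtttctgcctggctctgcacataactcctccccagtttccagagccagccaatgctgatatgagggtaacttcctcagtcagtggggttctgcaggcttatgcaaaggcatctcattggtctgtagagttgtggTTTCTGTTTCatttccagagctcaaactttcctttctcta
Trim12c: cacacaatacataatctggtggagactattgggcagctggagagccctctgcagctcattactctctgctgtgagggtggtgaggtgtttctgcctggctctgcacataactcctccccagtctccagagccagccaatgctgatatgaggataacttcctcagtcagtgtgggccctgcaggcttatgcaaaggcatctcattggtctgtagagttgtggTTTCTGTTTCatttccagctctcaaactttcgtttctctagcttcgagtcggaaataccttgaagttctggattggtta
Trim30d: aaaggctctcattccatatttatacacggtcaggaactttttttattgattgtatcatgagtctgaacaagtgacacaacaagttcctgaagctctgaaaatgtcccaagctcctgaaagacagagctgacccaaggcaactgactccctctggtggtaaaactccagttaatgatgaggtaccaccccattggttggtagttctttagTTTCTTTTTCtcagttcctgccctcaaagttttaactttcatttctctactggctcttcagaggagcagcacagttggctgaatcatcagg
The core occurred in 3.44% of 32851 promoter windows of the same length. In an end-to-end alignment the windows of Trim12a and Trim12c were identical at 247 of 340 columns (72.6%). Columns with a gap are counted among these, since each window holds 300 bases, so the share understates identity where bases are paired. The core had the same letters in both. The window of Trim34a held it too, as did both windows of Trim30a, whose difference of 0.12 was not called, and those of Trim6, Trim30b and Trim30c did not. A match is a description of these letters in the reference sequence. The DBA sequence was not used here.

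The Ifi200 genes on chromosome 1 encode interferon-inducible proteins that bind DNA. Here too neighbors ran in opposite directions. Ifi202b had log2 values of 4.56, 4.86 and 4.77 in DBA, against 2.66, 2.86 and 2.75 in B6. Mndal, the next gene in order, had 2.98, 2.87 and 1.87 in DBA, against 4.43, 5.13 and 5.08 in B6. Ifi202b was higher and Mndal lower on every DBA array than on any B6 array. The DBA values of Ifi202b lay near the median of all values on those arrays (4.68 to 4.76). The 129 arrays lay nearer DBA for Ifi202b and nearer B6 for Mndal (3.82 to 4.10 for Ifi202b and 4.88 to 5.14 for Mndal). Ifi202b was 3.92-fold higher in DBA (95% interval 3.21 to 4.78, adjusted p = 0.000108), and Mndal was 4.96-fold lower (adjusted p = 0.00669). Both passed in each of the 9 fits without 1 array. Of 5 measured members of the family list 1 was higher, 1 was lower and 3 did not pass. Ifi209 (-1.72 ± 0.23, adjusted p = 0.00779) and Ifi207 (-1.14 ± 0.20, adjusted p = 0.0281), which the list lacked and which were chosen after their values were seen, were lower in DBA. The call of Ifi207 passed in 2 of the 9 fits, those without DBA replicate 2 and B6 replicate 1 (adjusted p = 0.0455 and 0.0291, against 0.0519 to 0.0809 in the others). Aim2, a sensor of cytosolic DNA at the edge of this group, was at 0.29 (adjusted p = 0.460).

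The windows of these neighbors are shown because their motifs differ, on the minus strand of the same build, at chr1:173880138-173880437 for Mndal (the first of 2 listed starts) and chr1:173982795-173983094 for Ifi202b. Capitals mark the interferon-stimulated core in Mndal and the gamma-activated site TTCNNNGAA in Ifi202b.
Mndal: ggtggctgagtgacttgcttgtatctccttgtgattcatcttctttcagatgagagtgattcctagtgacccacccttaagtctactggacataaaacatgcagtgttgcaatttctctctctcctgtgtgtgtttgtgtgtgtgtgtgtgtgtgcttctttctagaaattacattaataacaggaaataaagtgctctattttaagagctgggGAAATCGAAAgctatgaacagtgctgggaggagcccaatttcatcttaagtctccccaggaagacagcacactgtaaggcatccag
Ifi202b: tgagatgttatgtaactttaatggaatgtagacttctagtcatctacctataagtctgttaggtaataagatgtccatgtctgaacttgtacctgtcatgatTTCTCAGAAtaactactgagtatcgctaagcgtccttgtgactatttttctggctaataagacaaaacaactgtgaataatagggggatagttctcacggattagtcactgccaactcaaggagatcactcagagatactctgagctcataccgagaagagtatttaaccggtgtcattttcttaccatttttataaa
The gamma-activated site occurred in 8.3% of all windows. The window of Ifi202b did not hold the interferon-stimulated core, whereas those of Mndal, Ifi207, Ifi208, Ifi213, Ifi214 and Ifi205 did. Ifi209 and Aim2 held neither motif.

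**Figure D3:**
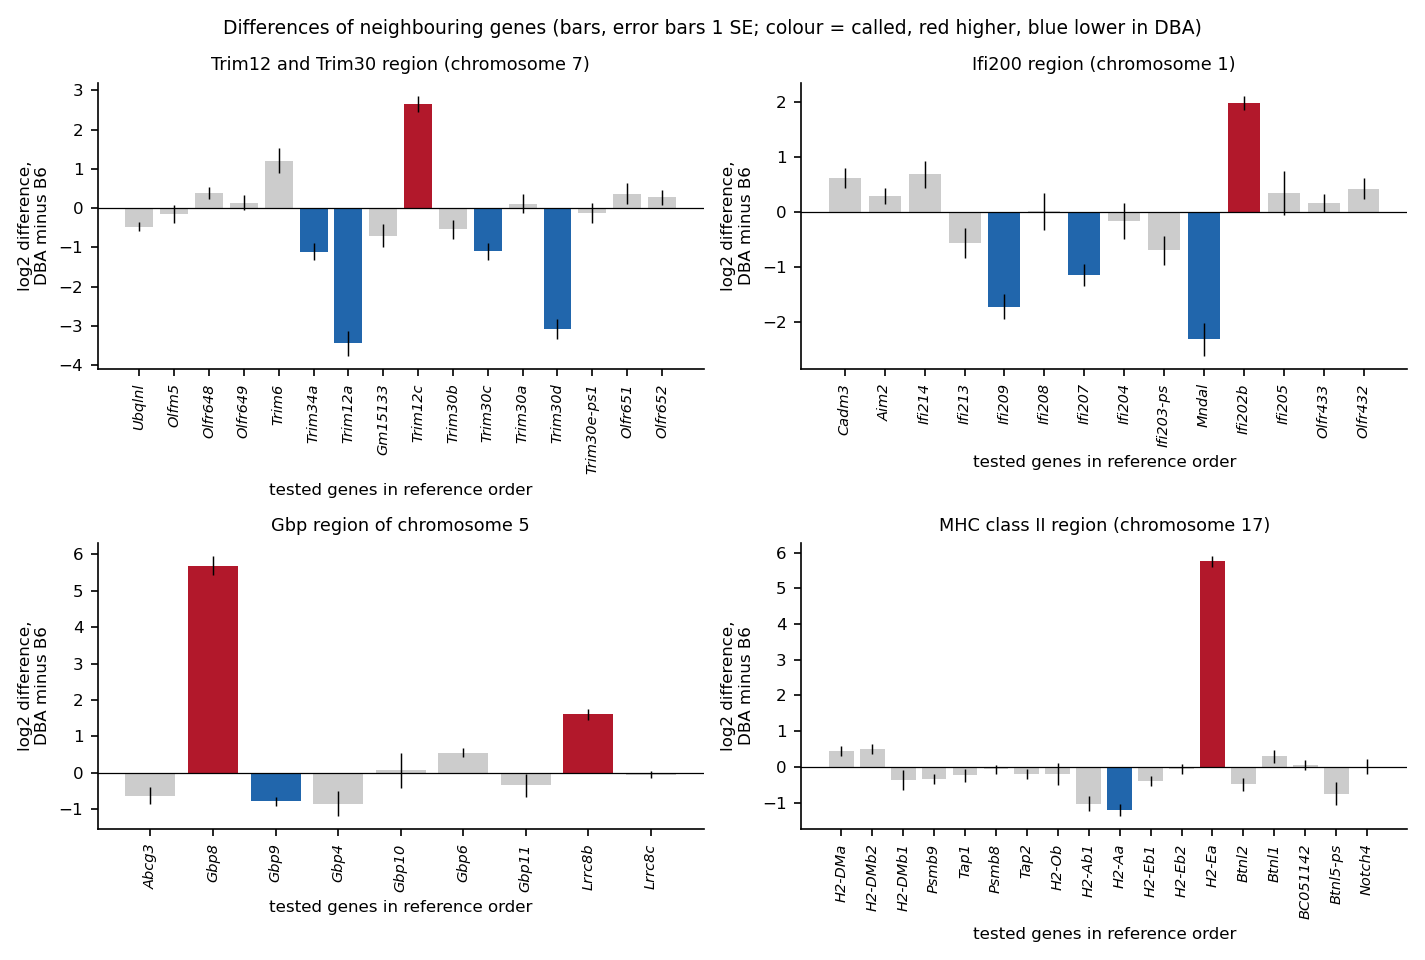
Log2 difference of DBA minus B6 arch (bars, with error bars of 1 SE) for tested genes in reference order in 4 regions, with called genes in red (higher in DBA) or blue (lower in DBA) and other genes in grey. In the Trim12 and Trim30 region Trim12a stands at -3.44 and Trim12c at 2.66, in the Ifi200 region Mndal at -2.31 beside Ifi202b at 1.97, and Gbp8 at 5.69 and H2-Ea at 5.75 are the tallest bars of their regions.

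Genes of the vessel surface and of leukocyte traffic were led by Stab2 and Cxcl14. Stab2, a scavenger receptor that clears hyaluronan, is known from sinusoidal endothelium. It had log2 values of 8.28, 8.07 and 8.12 in DBA, against 5.07, 4.07 and 4.03 in B6. The B6 array with hepatocyte transcripts, replicate 1, was the brightest of the B6 arrays, yet it lay well below any DBA array. The difference was 13.6-fold (95% interval 9.20 to 20.1, adjusted p = 0.000123), and the log2 difference was 4.15 without both arrays with other-organ transcripts (adjusted p = 1.42e-05). It was the 1 called member of 14 scavenger receptors, whose median was -0.18. Stab1, its closest relative, was at -0.42 (adjusted p = 0.521), and Cd36, a receptor for oxidized lipoproteins and fatty acids, was at 0.51 (adjusted p = 0.773). Olr1, the receptor for oxidized low-density lipoprotein, was at 0.72 (adjusted p = 0.0511).

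Cxcl14, a chemokine made by fibroblasts and epithelia, had log2 values of 9.94, 9.19 and 9.12 in DBA, against 5.00, 6.36 and 6.28 in B6. All 3 B6 arrays were low, and the 129 arrays (9.03 to 9.79) lay with DBA. It was 11.6-fold higher in DBA (95% interval 6.33 to 21.3, adjusted p = 0.00254). It was the 1 called member of 21 chemokines, whose median was 0.17, and Cxcl9 was at -1.22 (adjusted p = 0.384). Selp, P-selectin, an adhesion receptor for rolling leukocytes, had values of 6.30, 6.53 and 6.60 in DBA, against 8.72, 7.67 and 7.86 in B6. It was 3.05-fold lower in DBA (adjusted p = 0.0208), with the highest value on B6 replicate 1. It missed the threshold in the fits that left out any 1 DBA array (adjusted p = 0.0816, 0.0657 and 0.0627) or B6 replicate 3 (0.0530), and it passed without both arrays with other-organ transcripts (0.0259). Of 12 selectins and adhesion molecules the other 11 did not pass, among them Sele at -0.34 and Vcam1 at 0.42.

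Sema3e, a semaphorin that guides growing vessels and axons through plexin D1, had log2 values of 9.01, 9.23 and 9.21 in DBA, against 4.98, 5.68 and 5.38 in B6. The 129 arrays were between both (6.23 to 7.28). It was 13.9-fold higher in DBA (95% interval 9.05 to 21.4, adjusted p = 0.000208). In the coagulation and fibrinolysis list F2r, the thrombin receptor, had a DBA level 1.86-fold above B6 (adjusted p = 0.0376), and Plat, the tissue plasminogen activator that dissolves clots, was 1.91-fold lower (adjusted p = 0.0162). The other 10 of the 12 measured genes did not pass. Without 1 array F2r passed only in the fit without B6 replicate 1 (adjusted p = 0.0165, against 0.0525 to 0.127), and Plat did not pass when DBA replicate 1, DBA replicate 2 or B6 replicate 3 was left out (0.0688, 0.0623 and 0.0691) and without both arrays with other-organ transcripts (0.0845).

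In the contractile and matrix lists at most 1 gene per list passed the threshold. Over all genes 1.55% were called, and whether these lists depart from that share was not tested. Of 14 smooth muscle contractile genes 13 did not pass, and the median was 0.15. Acta2, smooth muscle actin, was at 0.02, and Myh11, smooth muscle myosin, was at 0.04. Des, the intermediate filament desmin, was the exception with values of 10.70, 11.35 and 10.70 in DBA, against 9.51, 9.51 and 9.35 in B6. Its highest value was on DBA replicate 2, which held heart transcripts, but all 3 DBA arrays lay above the B6 arrays, and it passed without both arrays with other-organ transcripts as well (2.75-fold higher in DBA, adjusted p = 0.00519 with all 9 arrays and 0.00635 without both). None of 12 elastic fibre genes was called. Eln, elastin itself, was at -0.65 ± 0.16 (adjusted p = 0.0981) and Mfap2, a microfibril protein, at -0.96 ± 0.24 (adjusted p = 0.106), both with their highest value on B6 replicate 1 and with no overlap between the groups. None of 17 collagen chains was called, with a median of -0.27, and their signals summed to 17827 to 21429 on the DBA arrays, against 32905 on B6 replicate 1 and 21500 and 24392 on the other B6 arrays. Without both arrays with other-organ transcripts the collagen median was -0.02 and 1 chain passed, Col8a1, higher in DBA (adjusted p = 0.0372).

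Mmp3, stromelysin 1, which degrades proteoglycans and other matrix proteins, had log2 values of 8.69, 9.01 and 9.48 in DBA, against 7.33, 7.40 and 7.37 in B6. The DBA level was 3.23-fold higher (adjusted p = 0.00779) and was the 1 called member of 16 matrix proteases and inhibitors. Acan, the proteoglycan aggrecan, had values of 7.19, 6.93 and 6.86 in DBA, against 8.88, 8.21 and 8.63 in B6, and was 2.99-fold lower in DBA (adjusted p = 0.00384). Both genes passed in each of the 9 fits without 1 array. The other 8 of 9 cartilage genes did not pass, and the cartilage list had a median of -0.01.

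Actc1, cardiac alpha actin, had log2 values of 8.79, 10.97 and 9.16 in DBA, against 6.86, 6.81 and 6.45 in B6. The DBA array with heart transcripts was the highest. On DBA replicates 1 and 3, Nppa, the atrial natriuretic peptide, had signals of 29 and 78, against 29 to 30 on the B6 arrays. Myh6, a myosin chain of heart muscle, had 62 and 54 on those DBA arrays, against 71 to 94 on the B6 arrays. The Actc1 call (7.64-fold higher in DBA, adjusted p = 0.0297) passed without DBA replicate 2 (0.0154) and without both arrays with other-organ transcripts (0.0218). It did not pass in the fits that left out any 1 B6 array (0.0520, 0.0747 and 0.112), DBA replicate 3 (0.0631) or 129 replicate 2 (0.0594). The heart muscle list had a median of 1.60 over 12 genes and of 0.07 without both arrays, where Actc1 was higher and Tnnt2 lower in DBA. Tnnt2, cardiac troponin T, chosen after its values were seen, had log2 values of 7.07, 12.44 and 7.13 in DBA, against 9.74, 9.34 and 9.05 in B6 (adjusted p = 0.926, and 0.0194 without both).

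**Figure D4:**
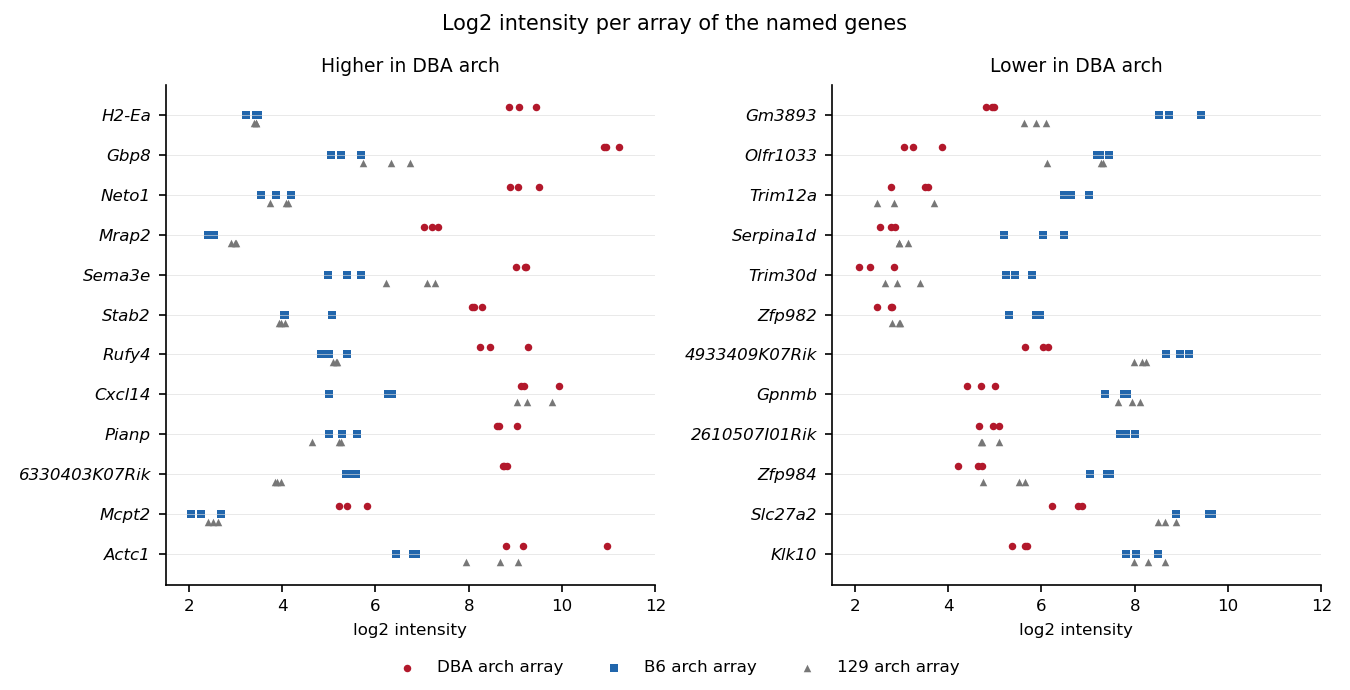
Log2 intensity on each DBA (red circles), B6 (blue squares) and 129 (grey triangles) arch array for the 12 named genes with the largest difference in each direction, with genes higher in DBA on the left and lower in DBA on the right. Genes were named only if no DBA array overlapped a B6 array. The 129 arrays lie with B6 for H2-Ea (3.39 to 3.43) but with DBA for Cxcl14 (9.03 to 9.79) and Trim12a (2.48 to 3.69).

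Other genes with large differences are known from neurons, skin or mast cells. Neto1 had log2 values of 9.05, 8.89 and 9.51 in DBA, against 4.20, 3.86 and 3.54 in B6. Mrap2, an accessory protein of melanocortin receptors, had 7.05, 7.22 and 7.34 in DBA, against 2.44, 2.53 and 2.42 in B6. Both were bright on every DBA array and at or below 4.20 on every B6 array. Neto1 was 39.0-fold (adjusted p = 8.39e-06) and Mrap2 26.7-fold higher in DBA (95% interval 22.6 to 31.7, adjusted p = 2.09e-07). Rufy4, linked to autophagy in dendritic cells, was 11.9-fold higher in DBA (adjusted p = 0.000161), Pianp, a neural ligand of an inhibitory leukocyte receptor, was 11.1-fold higher (adjusted p = 0.000105), and 6330403K07Rik was 9.70-fold higher (adjusted p = 9.67e-07).

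Mcpt2, a chymase of mucosal mast cells, had values of 5.21, 5.82 and 5.39 in DBA, against 2.04, 2.26 and 2.69 in B6. Every DBA array lay above every B6 array by a wide margin. It was 8.84-fold higher in DBA (95% interval 6.45 to 12.1, adjusted p = 0.000108). Other mast cell genes differed far less. Mcpt1, the gene before Mcpt2 in order, was chosen after its values were seen. It was dim in both strains (means of 2.05 in DBA and 2.51 in B6) and did not pass (-0.46, adjusted p = 0.550). Mcpt4, a chymase of connective tissue mast cells, had a DBA level 1.91-fold above B6 (adjusted p = 0.0199), and 6 of the 7 listed genes did not pass, including Cpa3, a mast cell carboxypeptidase, at 0.08, and Kit, the receptor for stem cell factor, at 0.54. The mast cell genes summed to signals of 385 to 477 on the DBA arrays and of 350 to 359 on the B6 arrays. Mcpt4 missed the threshold once any 1 DBA array was left out (adjusted p = 0.0709, 0.0546 and 0.0772), once B6 replicate 2 was left out (0.0614) and also without both arrays with other-organ transcripts (0.0762).

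Among genes lower in DBA, Gm3893 had log2 values of 4.99, 4.95 and 4.81 in DBA, against 9.42, 8.53 and 8.74 in B6. It was 15.8-fold lower in DBA (adjusted p = 5.74e-05), and its 3 transcript clusters all differed alike (-3.43 to -4.10). The clusters of 4933409K07Rik, 8 in number, also ran one way (-2.39 to -3.34), and both are predicted genes that may share probes among copies. Olfr1033 had values of 3.24, 3.06 and 3.87 in DBA, against 7.44, 7.26 and 7.20 in B6, and was 15.0-fold lower in DBA (adjusted p = 0.000517). Olfr1034, its neighbor, chosen after its values were seen, was lower too (-2.16 ± 0.25, adjusted p = 0.00390). The zinc finger genes Zfp982 (8.23-fold, adjusted p = 7.55e-05) and Zfp984 (6.84-fold, adjusted p = 0.000873) were lower in DBA, as was 2610507I01Rik (7.61-fold, adjusted p = 5.56e-05).

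Slc27a2, which imports very long-chain fatty acids and joins them to coenzyme A, had log2 values of 6.79, 6.22 and 6.86 in DBA, against 8.89, 9.66 and 9.59 in B6. It was 6.76-fold lower in DBA (adjusted p = 0.000759), and the value on B6 replicate 1 was the lowest of the B6 arrays. Klk10, a kallikrein-related peptidase, was 5.87-fold lower in DBA (adjusted p = 0.000550), with values of 5.36 to 5.68 in DBA, against 7.82 to 8.49 in B6. Serpina1d, an isoform of the protease inhibitor alpha-1-antitrypsin, had 2.55, 2.78 and 2.87 in DBA, against 6.49, 6.04 and 5.20 in B6. The value on B6 replicate 1 was the highest, but the other B6 arrays also lay well above DBA. Serpina1d was 9.06-fold lower in DBA (adjusted p = 0.000747, and 0.00338 without both arrays with other-organ transcripts). Its paralogs are similar in sequence, and none of the 4 measured passed. Serpina1c had 9.85 on B6 replicate 1 and 3.24 to 4.82 on the other 5 arrays, and Serpina1a was highest there too (4.97). Serpina1b (5.33) and Serpina1e (3.43) on B6 replicate 1 lay within their DBA ranges of 4.93 to 5.59 and 2.86 to 4.11.

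Of the 17 measured genes on the list of cytosolic ribosomal proteins, 1 was called. Rpl3, of the large subunit, had log2 values of 11.53, 11.79 and 11.84 in DBA, against 9.53, 9.27 and 9.49 in B6. The DBA level was 4.89-fold higher (adjusted p = 5.74e-05), whereas its other clusters were at -0.42 and -0.05, and the median of the 17 ribosomal genes was 0.04. Signal thus differed between clusters of this gene. Of 30 called genes with more than 1 cluster, 4 had another cluster called in the same direction.

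Genes with variants known between DBA/2 and C57BL/6 mice were read beside the strain labels. Their list was chosen with earlier results of these data known, so it is no independent check of the labels. Of 11 measured genes, 6 were higher in DBA, 1 was lower and 4 did not pass, with a median of 0.73. Over all genes 1.55% were called. H2-Ea, known to be silent in the haplotype of B6 and 129, was bright in DBA arrays alone. Gpnmb, a glycoprotein of pigment cells and macrophages with a known stop codon in DBA/2J, had log2 values of 5.00, 4.70 and 4.41 in DBA, against 7.84, 7.37 and 7.77 in B6. It was 7.75-fold lower in DBA (adjusted p = 0.000123), and the 129 arrays lay with B6 (7.64 to 8.11). Myo5a, the myosin altered by the dilute mutation that DBA mice carry, was 3.05-fold higher in DBA (adjusted p = 0.00157). Hc, complement component 5, known to be lost in DBA/2, did not pass (-1.02, adjusted p = 0.771), with 3.27 to 4.84 in DBA, against 7.74 on B6 replicate 1 and 3.15 and 3.77 on the other B6 arrays. Tyrp1, of the brown coat color, was dim in both strains (means of 3.64 and 3.81 in DBA and B6 arch), Ahr, the dioxin receptor, was at 0.06, and Klrd1, a natural killer cell receptor, was at -0.60 (adjusted p = 0.233).

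Alad and Glo1 lie in segments known to be duplicated in DBA/2. Alad, the second enzyme of heme synthesis, had log2 values of 10.60, 10.78 and 10.51 in DBA, against 9.26, 9.75 and 9.56 in B6. It was 2.15-fold higher in DBA (95% interval 1.70 to 2.72, adjusted p = 0.00823). Hdhd3, the adjacent gene, was 2.69-fold higher (adjusted p = 0.000822), while the next genes on either side, Bspry (0.32) and Pole3 (0.24), did not pass. Glo1, the glyoxalase that clears methylglyoxal, was 1.65-fold higher in DBA (adjusted p = 0.0286), with 9.31, 9.56 and 9.24 in DBA, against 8.82, 8.53 and 8.58 in B6. Nearby, Btbd9 was 1.48-fold (adjusted p = 0.0366) and Dnah8 2.20-fold higher (adjusted p = 0.0453), and Zfand3 was at 0.08. Hdhd3, Btbd9 and Dnah8 were chosen after their values were seen. The calls of Glo1 and Dnah8 passed in 1 of the 9 fits without 1 array, that without B6 replicate 1 (0.0199 and 0.0362), and that of Btbd9 also in that fit alone (0.0429). In the other fits their adjusted p was 0.0527 to 0.145. Without both arrays with other-organ transcripts Glo1 passed (0.0381), and Btbd9 (0.0956) and Dnah8 (0.0544) did not.

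Nnt, the mitochondrial transhydrogenase truncated in C57BL/6J, was 2.13-fold higher in DBA (adjusted p = 0.0299), with 8.87, 9.48 and 9.21 in DBA, against 8.41, 7.81 and 8.06 in B6. Gabra2, a receptor subunit with a known intronic deletion in C57BL/6J, was 2.07-fold higher (adjusted p = 0.0406). The call of Nnt passed without DBA replicate 1 or B6 replicate 1 (0.0320 and 0.0166) and was lost in the other 7 fits (0.0544 to 0.109). That of Gabra2 passed without 129 replicate 2 or 3 (0.0447 and 0.0474) and was lost in the other 7 (0.0654 to 0.135). Without both arrays with other-organ transcripts Nnt passed (0.0275) and Gabra2 did not (0.0836).

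Called genes often had a called neighbor. Of 341 called genes placed in the reference order, 70 (20.5%) had another called gene within 3 tested genes on either side, against 8.53% of all placed genes. They formed 31 groups, of which 22 ran in 1 direction and 9 in both, and the largest were the Trim cluster with 5 called genes and the Ifi200 cluster with 4. The share of tested genes that were called was 2.52% on chromosome 1, 2.15% on chromosome 17 and 2.05% on chromosome 4, against 0.569% on chromosome 10 and 0.666% on chromosome 6. On chromosome 5, 19 called genes were higher and 2 lower in DBA, and on chromosome 11, 5 were higher and 17 lower. Genes that overlap or are copies of each other can share probes, so neighbors are not independent.

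The candidates that the study named at its plaque loci were also read in this contrast, and the study chose them partly on these arrays. At Ath44 on chromosome 1, 24 candidates were measured, of which 2 passed as higher and 2 as lower in DBA, with a median of -0.10. Over all genes 1.55% were called. Npl, the lyase that cleaves sialic acid, had log2 values of 7.62, 7.36 and 7.72 in DBA, against 6.27, 5.38 and 5.47 in B6. Fmo2, a flavin monooxygenase of lung and vessel, had 10.80, 11.33 and 11.49 in DBA, against 12.18, 12.02 and 12.12 in B6. The groups were apart for both, and Ifi202b and Selp are described above. Npl was 3.64-fold higher in DBA (95% interval 2.38 to 5.58, adjusted p = 0.0123) and Fmo2 1.87-fold lower (adjusted p = 0.0376). Npl did not pass in 3 of the 9 fits, those leaving out DBA replicate 1, DBA replicate 3 or B6 replicate 3 (adjusted p = 0.0564, 0.0577 and 0.0594). Fmo2 passed only without DBA replicate 1 or 3 (0.0431 and 0.0374, against 0.0688 to 0.125). Without both arrays with other-organ transcripts 4 candidates were higher and 3 lower, and Fmo2 did not pass (0.104). Of the 16 measured candidates at Ath45 on chromosome 2 none passed, with differences between -0.63 and 0.57 and a median of -0.04.

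Most cell-type and pathway lists had no called member, or 1. Endothelial genes (14 measured, median 0.04), fibroblast and adventitial genes (12, median -0.22), macrophage genes (14, median -0.32), T cell and thymocyte genes (10, median -0.08), B cell genes (8, median 0.31) and natural killer cell genes (8, median -0.34) had none. Without both arrays with other-organ transcripts the macrophage median was 0.02 and the T cell median -0.60, and the T cell genes summed to 444 to 880 on the DBA arrays, against 1582 on B6 replicate 3 and 399 and 391 on the other B6 arrays. Sterol synthesis and low-density lipoprotein receptor genes (16, median 0.06), lipoprotein and fatty acid handling genes (17, median -0.01), complement genes (15, median -0.04) and circadian clock genes (15, median -0.00) had none either. Among these the differences farthest from 0 were Lcat at -1.22, Hc at -1.02, C4b at 0.85, Kdr, the receptor for vascular endothelial growth factor, at 0.82, and Cry1, a clock repressor, at 0.71 (adjusted p = 0.429, 0.771, 0.163, 0.546 and 0.0507). Lcat and Hc were highest, and Kdr lowest, on B6 replicate 1. The white adipocyte hormone Lep was at 2.09 ± 0.51 (adjusted p = 0.0971), with 7.91, 8.40 and 7.78 in DBA, against 4.87, 7.34 and 5.62 in B6. Of the 9 fits without 1 array it passed only without B6 replicate 2 (adjusted p = 0.00273, against 0.128 to 0.277). Without both arrays with other-organ transcripts it did not pass (0.233). White adipocyte genes summed to 9106 to 10939 on the DBA arrays, against 3727 on B6 replicate 1 and 14178 and 11670 on the other B6 arrays. Retn, resistin, was at -1.49 ± 0.35 (adjusted p = 0.0875). Of the 9 fits it passed only without B6 replicate 1 (0.0134, against 0.129 to 0.237), and it passed without both arrays with other-organ transcripts (0.0230).

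Some other list members were called with differences of 1.60-fold to 2.22-fold. Dio2, which activates thyroid hormone in brown fat, was 1.95-fold lower in DBA (adjusted p = 0.0337), Bub1b, a mitotic checkpoint kinase, was 2.22-fold lower (adjusted p = 0.0208), and Aldh3a1, an aldehyde dehydrogenase, was 2.01-fold lower (adjusted p = 0.0400). Junb, an immediate early transcription factor, was 1.60-fold higher in DBA (adjusted p = 0.0499). Junb was lost in all 9 fits without 1 array (adjusted p = 0.0699 to 0.128), and Aldh3a1 passed only without B6 replicate 2 (0.00717, against 0.0554 to 0.136). Dio2 passed without B6 replicate 3 or 129 replicate 3 (0.0349 and 0.0373, against 0.0541 to 0.113), and Bub1b did not pass when DBA replicate 1, DBA replicate 2 or B6 replicate 3 was left out (0.0755, 0.0708 and 0.0819). None of these 4 calls passed without both arrays with other-organ transcripts (adjusted p = 0.0910 to 0.122). Ucp1, the uncoupling protein of brown fat, had signals of 5847, 4284 and 3444 in DBA, against 1040, 7143 and 6081 in B6, lowest on B6 replicate 1. The proliferation list had a median of -0.36 over 13 genes and the brown adipocyte list of 0.45 over 7. Without both arrays with other-organ transcripts these medians were -0.40 and -0.58, so that of the brown adipocyte list changed sign.

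**Figure D5:**
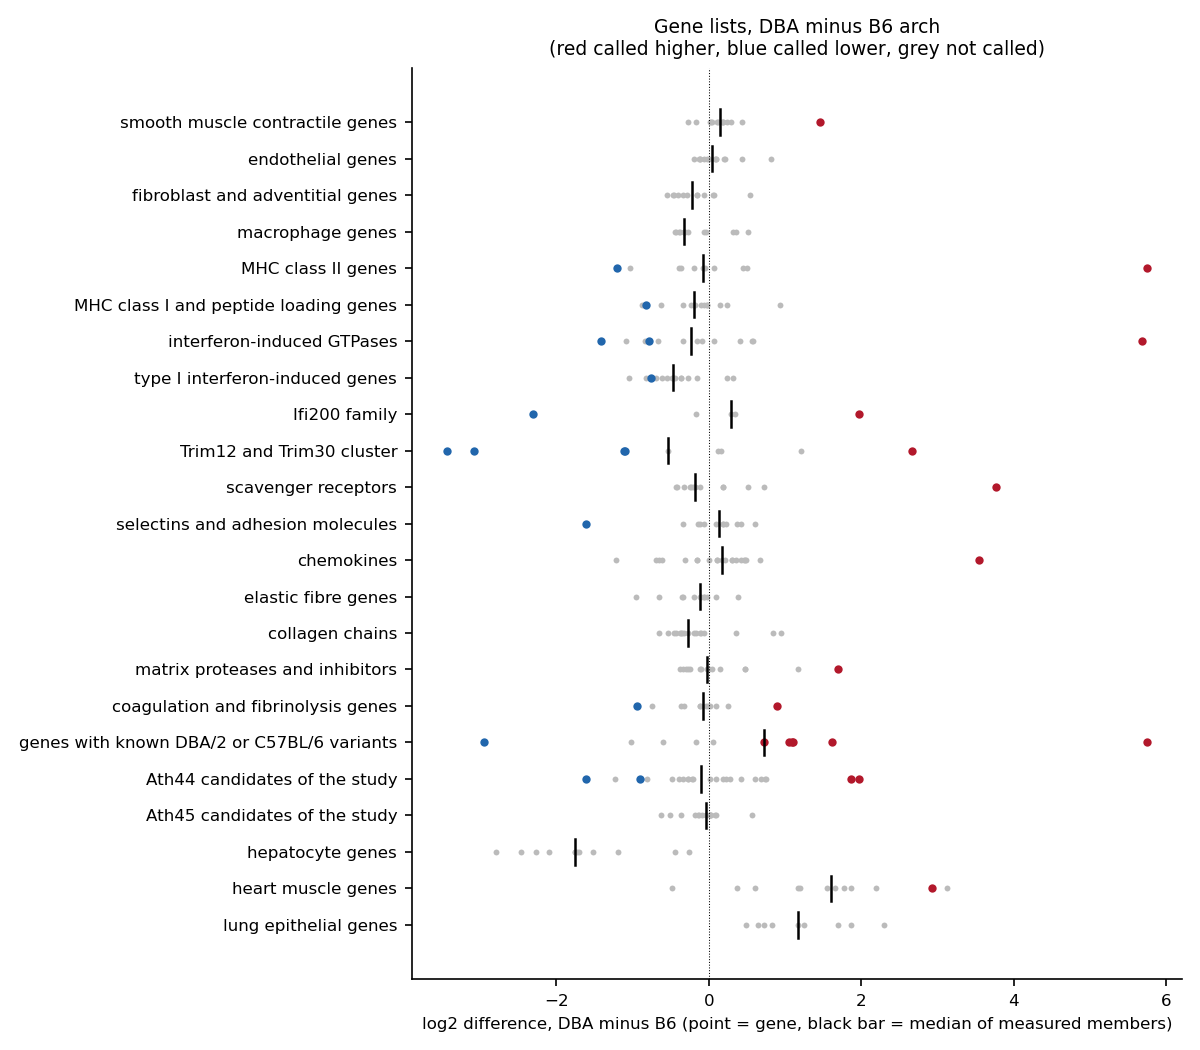
Log2 difference of DBA minus B6 arch for each measured member (points) of selected gene lists, with called genes in red (higher in DBA) or blue (lower in DBA), other genes in grey and the median of each list as a black bar. Medians lie between -0.54 and 0.73 except for the hepatocyte (-1.75), heart muscle (1.60) and lung epithelial lists (1.17), whose members are bright on single arrays.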

How the data were processed

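RNA of pooled aortic arch was hybridised to Affymetrix Mouse Gene ST arrays. The deposited log2 intensities, 1 per transcript cluster, were normalised by the authors in Affymetrix Expression Console. How probes were summarised, and on which build, is not given in the sources used here. These files hold no reads, so the number of arrays limits the precision. Arrays were grouped by title. Of 41345 clusters, 23521 named for 1 gene gave 22180 genes, each by its cluster of highest mean over the 12 arrays. The 9 arch arrays were fitted in limma 3.58.1 (R 4.3.3, lmFit and eBayes), with the contrast DBA minus B6 and two-sided p-values adjusted by the Benjamini-Hochberg method over all genes, and called under 0.05. The code was tested on simulated data. Named genes were, among calls that also passed without DBA replicate 2 and B6 replicate 1 and did not overlap, the 12 with the largest difference in each direction. Beside these, of each list up to 5 called members, of lists without calls the largest differences, the measured genes with known strain variants and called candidates of the study were named. The members and the 49 lists were chosen with earlier results of these data known. Alternatives were other scalings, filters, priors, arrays and tests, and the study's Tukey-Kramer test. Gene order and promoters came from RefSeq (GRCm38.p6), with 21994 genes matched. Aortic root arrays were used only to choose clusters and in the alternative fit of all 12 arrays.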

Additional observations from a re-analysis of the deposited data

Results flagged for a closer look

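Transcript clusters outside the genes of the report also differed between DBA and B6 arch. Of 17824 clusters that were named for several genes or had no name, 199 passed the threshold in limma (1.12%), with 54 higher and 145 lower in DBA. Of these, 52 were named for several genes and 147 had no name. In the same fit, 265 clusters with 1 gene symbol passed, with 146 higher and 119 lower in DBA. The transcripts behind the unnamed clusters are not identified here.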

How the results depend on the processing

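Of the 24 genes with the largest differences, 21 passed the threshold under every alternative read for them, and no named gene reversed its direction with a call. The exceptions were Actc1, and Cxcl14 and Trim12a under the methods' Tukey-Kramer test after Benjamini-Hochberg adjustment (0.101 and 0.0631). The mean over a gene's clusters was not read for single genes, and the filter against dim genes left some of them out. Passing without DBA replicate 2 and B6 replicate 1 together was a condition for being among the 24. The number of calls depended on the fit. It was 344 (190 higher and 154 lower in DBA) as reported, 514 (273 and 241) with a robust trended prior, 1348 (797 and 551) with array weights, 128 (74 and 54) with the 6 DBA and B6 arrays alone, 671 (366 and 305) with all 12 arrays, 464 (200 and 264) with every cluster as its own feature and 194 (109 and 85) at 2-fold or more. The methods' Tukey-Kramer test gave 1659 (958 and 701) unadjusted and 81 (48 and 33) after Benjamini-Hochberg adjustment. Quantile scaling gave 376 (186 and 190) and median centring 365 (172 and 193). Fits that left out 1 array gave 159 to 394 calls, with 86 to 210 higher and 66 to 184 lower in DBA. Counts were 175, 182 and 187 without DBA replicates 1, 2 and 3, 394, 239 and 159 without B6 replicates 1, 2 and 3, and 231, 230 and 224 without 129 replicates 1, 2 and 3. With the replicate number as a block, 186 genes passed (102 and 84). Same-numbered DBA and B6 arrays did not deviate together (r = -0.0890, 0.00917 and -0.0487 across genes, which are not independent replicates), so the numbers were not taken to pair the samples. Of 931 combinations of a list and a setting, 203 moved. The cause of these changes was not tested.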

Other observations

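Some genes of growth and tissue patterning, chosen after their values were seen, differed between the strains in each of the 9 fits without 1 array. Grem1, a secreted antagonist of bone morphogenetic proteins, had log2 values of 6.90, 6.35 and 6.74 in DBA, against 4.49, 4.44 and 4.65 in B6 (log2 difference 2.14 ± 0.19 (SE), limma adjusted p = 0.000822). Scx, the tendon transcription factor scleraxis, had 9.51, 9.29 and 9.54 in DBA, against 7.65, 7.68 and 7.91 in B6 (1.70 ± 0.16, adjusted p = 0.000910). The groups were apart for both genes. Ldb2, a cofactor of LIM-domain transcription factors, was higher in DBA as well (1.96 ± 0.11, adjusted p = 5.87e-05). Fgf2, a growth factor for smooth muscle and endothelium, was lower in DBA (-1.45 ± 0.18, adjusted p = 0.00547), as was Wnt2b, a Wnt ligand (-1.18 ± 0.16, adjusted p = 0.00779).

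Some genes known from neutrophils, also chosen after their values were seen, were called higher in DBA, and others were not called. S100a8, a subunit of calprotectin, had log2 values of 5.70, 6.88 and 6.89 in DBA, against 3.37, 4.93 and 3.70 in B6 (2.49 ± 0.44, adjusted p = 0.0297), and passed in 2 of the 9 fits without 1 array and not without both arrays with other-organ transcripts (0.115). Its partner S100a9 was at 1.88 (adjusted p = 0.0440, and 0.116 without both), passing in 1 of the 9 fits. Csf3r, the receptor for granulocyte colony-stimulating factor, was at 1.48 (adjusted p = 0.0380, and 0.0314 without both). Csf3r passed in 2 of the 9 fits, those without DBA replicate 2 or B6 replicate 2, with an adjusted p of up to 0.134 in the others. The neutrophil genes Ly6g (1.12), Mmp8 (1.92), Ngp (0.63), Camp (0.12), Ltf (1.23), Cd177 (0.76), Elane (-0.05) and Mpo (-0.09) did not pass (adjusted p = 0.137, 0.236, 0.314, 0.900, 0.482, 0.224, 0.931 and 0.910).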
